A study of Arabidopsis thaliana with 42 samples.

Results

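The mitochondrial genome of Arabidopsis thaliana was described here through all features whose gene identifier begins with ATMG, 78 of them at 0 in every library and 68 with a value, out of 28691 features listed for 4 libraries of the reference accession Col-0. The other features are 133 of the plastid genome and 28412 of the nucleus. Members were taken by identifier alone, so no measured value chose them. The study sequenced seedlings of 19 accessions, the founders of a mapping population. The libraries used here are 4 technical replicates from 11-day-old Col-0 seedlings, for which the labels give no mutation, transgene or treatment. Seeds had spent 5 days at 4 C, and plants then grew on soil at 20 C with 16 h of light and 8 h of darkness. All 4 came from polyadenylated RNA of whole seedlings and were placed in lane 7 of run 35. In the 38 biological libraries, 2 of each of the 19 accessions, every member carries the code -1 in place of a value, so no member could be compared between accessions.

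Mitochondria keep a small genome that encodes a few core subunits of the respiratory chain and of the ATP synthase, some ribosomal proteins, factors that attach heme to cytochrome c, ribosomal and transfer RNAs, and many open reading frames of unknown function. Most subunits of the same complexes are encoded in the nucleus and imported. In plants, mitochondrial transcripts mostly lack the stable poly(A) tails of nuclear messenger RNA, and a tail added to them marks them for decay, so a library of polyadenylated RNA does not sample the 2 kinds of transcript alike.

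Values are RPKM, read counts scaled to exon model length and library size, and n = 4 always means 4 technical libraries of 1 sample, whose spread is technical. The steps between low values put the depth at 4370000 to 4590000 mapped reads per library. At this depth a count of 0 on a feature 1 kilobase long allows up to 0.654 to 0.687 RPKM (3 reads, counting error only). Whole reads and an implied feature length were recovered for 52 of the 68 members above 0. In a chi-square test over 615 to 616 low nuclear genes, 1 of 6 pairs of libraries differed beyond sampling noise (libraries 2 and 4, adjusted p = 0.037), and the 4 are counted as 1 sample. Green tissue markers stood at 2721 to 16828 RPKM, root markers at 0.105 to 176 RPKM, and 3 of 3 pollen markers were listed at 0. The 10 nuclear genes for mitochondrial proteins that served as markers of the organelle lay between 2.13 and 74.5 RPKM.

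The identifiers are not paired with genes in the reference annotation used here, and 53 members could be tied to a name or a copy, since notes on chromosome 2 loci cite them as best protein match or as the source of a pseudogene. The other 93 are given by identifier only. Col-0 carries a large piece of mitochondrial DNA in the nucleus, and the 2 sequences were compared first because every name used here was read from loci there. Matches of at least 500 bases and 99% identity between the RefSeq mitochondrial genome and chromosome 2 covered 269621 bases between chr2:3239038-3509765 (TAIR10.1), in 19 segments of 99.56% to 99.97% identity. They took in 72.2% of the mitochondrial genome, 265718 of 367808 bases. Of 46 chromosome 2 coding sequences cited in this way, 23 were identical to the mitochondrial genome over their whole length and 34 were at least 99% identical. Each was scored by its single best match, so the share is a lower limit where the coding sequence lies in several exons. Printed below from RefSeq TAIR10.1, 5′ to 3′ on the coding strand, are the coding sequence of the locus whose member had the highest level of all named ones and the start of the coding sequence of 1 locus that differs from the mitochondrial genome, with the differing base in capitals.
AT2G07671, cited with ATMG01080 (ATP synthase subunit 9), chr2:3251856-3252113, minus strand, no base differing: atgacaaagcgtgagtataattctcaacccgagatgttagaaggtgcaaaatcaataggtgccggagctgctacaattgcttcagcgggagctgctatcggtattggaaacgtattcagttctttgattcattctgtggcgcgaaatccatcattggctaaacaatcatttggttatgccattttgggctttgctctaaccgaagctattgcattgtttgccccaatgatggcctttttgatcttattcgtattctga
AT2G07673, cited with ATMG01030 (unknown protein), chr2:3266578-3266877, plus strand, the first 300 of 321 coding bases, 1 base differing: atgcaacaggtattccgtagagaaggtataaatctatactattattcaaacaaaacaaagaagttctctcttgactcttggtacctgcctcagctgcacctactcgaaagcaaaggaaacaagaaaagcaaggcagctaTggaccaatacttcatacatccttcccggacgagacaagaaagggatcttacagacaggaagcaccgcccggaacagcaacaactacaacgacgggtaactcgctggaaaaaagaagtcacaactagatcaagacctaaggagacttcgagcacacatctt
A read that falls wholly within such an identical stretch carries no base that says which genome it came from. The sources used here do not say how reads with more than 1 match were counted, and the values of named members and of their copies are uncertain for that reason. The match takes in 72.2% of the mitochondrial genome, and the unnamed members could not be placed inside or outside it. Their values may therefore be uncertain in the same way.

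Mitochondrial features were mostly listed at 0 or near it. In all 4 libraries 78 members (53.4%) were at 0, against 54 of 133 plastid features (40.6%) and 7062 of 28412 nuclear genes (24.9%), with 25.1% over all features. Of the 68 members above 0, 35 had a value in all 4 libraries, 7 in 3 of them, 7 in 2 and 19 in 1 only. Libraries 1 to 4 each held 96, 98, 100 and 96 members at 0. A level of at least 1 RPKM in all 4 libraries was reached by 27 members (18.5%), against 78 plastid features (58.6%) and 16183 nuclear genes (57.0%), with 56.8% over all features. Only 3 members averaged between 10 and 100 RPKM and 1 averaged over 100 RPKM, whereas 28 and 47 plastid features did. The median over all members was 0 RPKM, against 38.8 RPKM for plastid and 3.06 RPKM for nuclear features. As a difference of medians of log2(RPKM + 1), all mitochondrial minus all plastid features stood at -5.31 in the mean of 4 libraries. Because the mitochondrial median is itself at 0, that value restates the plastid level and the pseudocount, and it stood at -8.60 with a pseudocount of 0.1. Over features above 0 in at least 1 library the difference was -6.05, an alternative added after seeing the data. Proteins and RNAs could not be separated by identifier, so this covers all features of both genomes. The part that selection of polyadenylated RNA has in these levels was not tested, and in whole seedlings fewer cells of a type and less RNA per cell cannot be told apart.

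**Figure D1:**
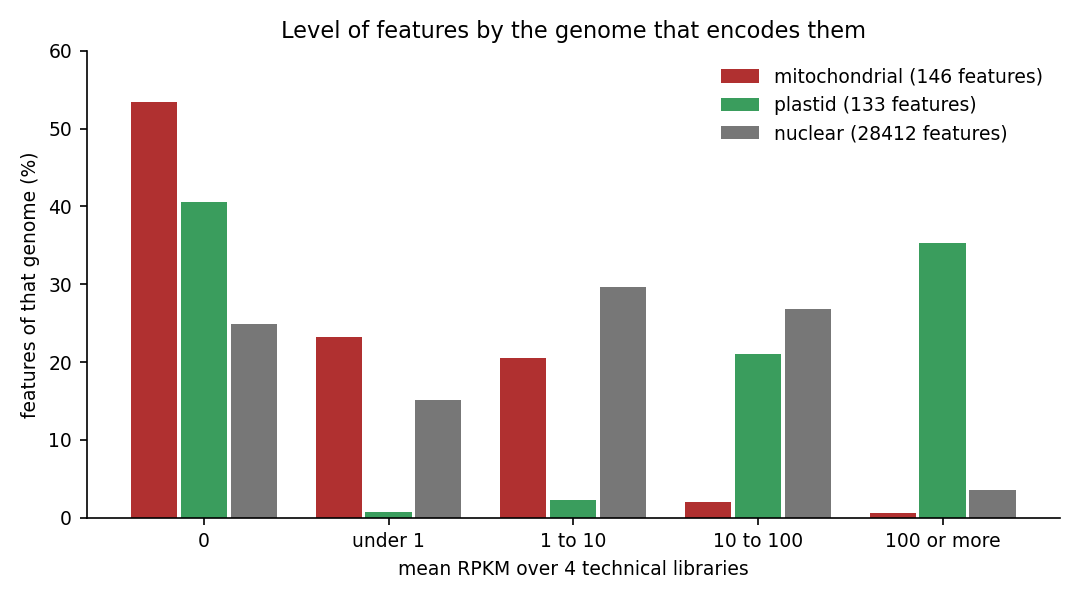
Share of features (%, vertical axis) by mean RPKM over the 4 technical libraries (horizontal axis), for all mitochondrial, 133 plastid and 28412 nuclear features. Mitochondrial features lead in the class at 0 with 53.4% and have 0.685% at 100 RPKM or more, against 35.3% of plastid features.

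The members together made up 0.105%, 0.102%, 0.103% and 0.106% of the summed RPKM of libraries 1 to 4, against 7.76%, 7.83%, 7.84% and 8.65% for the plastid. These shares of summed RPKM are per length and are not shares of reads. A single feature supplied most of the mitochondrial sum. ATMG00030 was at 603, 604, 633 and 605 RPKM in libraries 1 to 4, or 611 ± 14.7 RPKM (SD, n = 4), with library 3 the highest. It made up 73.2% to 78.4% of the mitochondrial sum per library, and the annotation used here gives it no name. Without it the members summed to 217, 194, 175 and 221 RPKM, higher in libraries 1 and 4 than in libraries 2 and 3.

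After ATMG00030 the order of levels was clear for 1 more member. ATMG01080, subunit 9 of the ATP synthase membrane rotor, was at 31.7, 37.3, 29.2 and 30.7 RPKM, or 32.2 ± 3.50 RPKM. Its lowest library lay below every library of ATMG00030 and above every library of the member next in order, and the means of the top pair stood 19.0-fold apart. ATMG00160 followed at 16.0, 9.65, 9.55 and 10.3 RPKM, with library 1 apart from the others. From ATMG00160 on, the library ranges of each pair of neighbours in the order overlapped as far as the 15th member.

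Unnamed features filled the rest of the highest 10. ATMG00660 was at 13.7, 8.14, 7.33 and 16.0 RPKM, with libraries 1 and 4 above libraries 2 and 3. ATMG00640 was at 10.6, 7.91, 9.12 and 9.04 RPKM and ATMG00830 at 8.94, 7.97, 5.93 and 10.06 RPKM. Both had their lowest and highest library less than 2-fold apart. ATMG00690 was at 7.89, 10.13, 6.08 and 8.75 RPKM, ATMG00650 at 9.79, 6.80, 5.08 and 9.36 RPKM, and ATMG00510 at 6.35, 7.34, 7.61 and 7.73 RPKM. The last of these had the narrowest range of the 3. ATMG01370 was at 4.75, 4.09, 8.51 and 11.7 RPKM, and its libraries 3 and 4 stood above libraries 1 and 2. Of the members that followed, ATMG01360 was steady at 6.63, 6.65, 6.25 and 7.02 RPKM, while ATMG00070 was at 7.17 and 7.29 RPKM in libraries 1 and 3 and at 2.80 and 3.43 RPKM in libraries 2 and 4. The 17 members below the highest 10 that reached 1 RPKM in all 4 libraries averaged 2.53 to 7.25 RPKM.

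**Figure D2:**
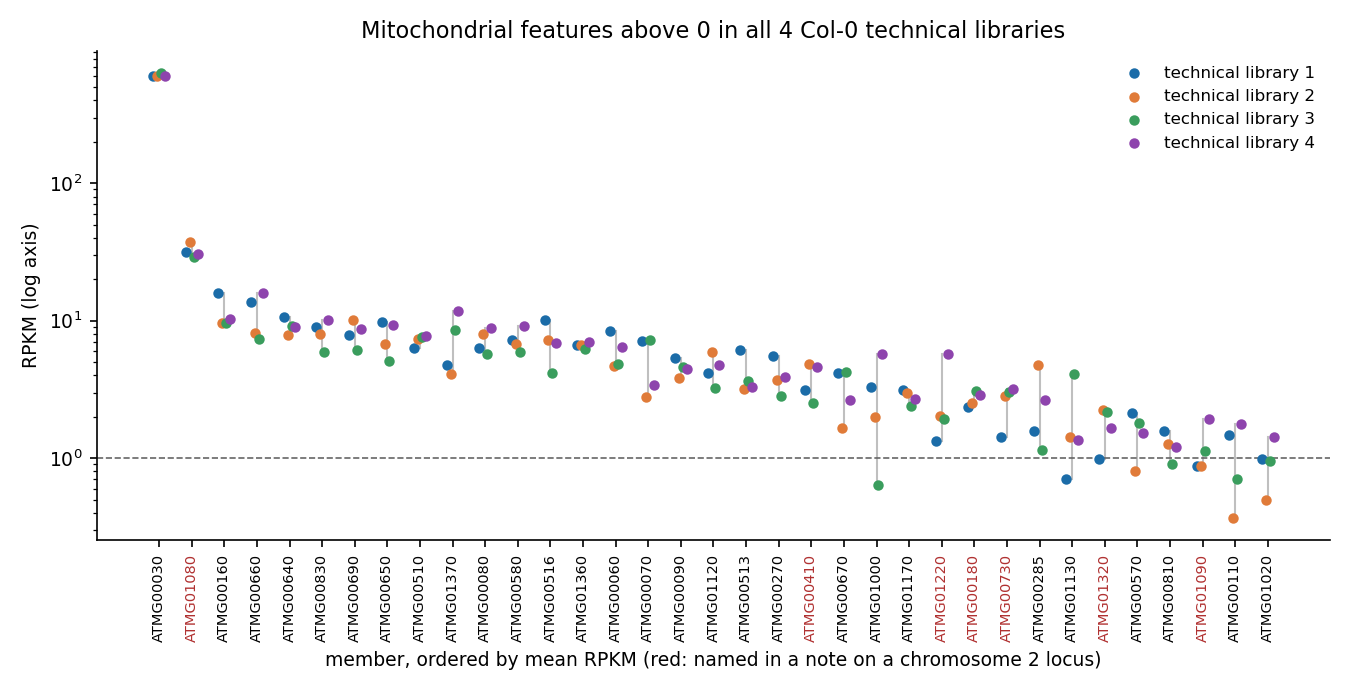
RPKM on a log axis (vertical) in each of the 4 technical libraries for the 35 members above 0 in all 4, ordered by mean (horizontal), with grey lines from the lowest to the highest library and a dashed line at 1 RPKM. ATMG00030 stands apart at 603 to 633 RPKM and ATMG01080 at 29.2 to 37.3 RPKM, while the other members run on from 16.0 RPKM downward with overlapping ranges.

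Some of the members that reached 1 RPKM in all 4 libraries were neighbours in the numbering. The 27 members at 1 RPKM or more in all 4 libraries fell into 19 runs of consecutive identifiers, and 4 of these runs held 12 of the members. ATMG00060 to ATMG00090 formed the longest, with 4 members, followed by ATMG00510 to ATMG00516 and ATMG00640 to ATMG00660 with 3 each. Up to 7 consecutive identifiers were at 0 in all libraries. These runs are a description of the list and were not set against a random order. Distances along the genome were not analysed here.

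Named respiratory chain members were low. For complex I, which takes electrons from NADH, ATMG01320 (NADH dehydrogenase subunit 2) was at 0.99, 2.23, 2.15 and 1.66 RPKM, which rest on 29 recovered reads (95% exact Poisson interval 19.4 to 41.6). ATMG00990 (subunit 3) had 0, 0, 0 and 0.61 RPKM and ATMG01275 (subunit 1) 0.59, 0, 0 and 0 RPKM. At the shortest length that gives whole reads, each of these last values is 1 read, with an exact Poisson interval of 0.0253 to 5.57 reads. ATMG00220, apocytochrome b of complex III, was listed at 0 in all 4 libraries. ATMG00730, subunit 3 of cytochrome c oxidase, the terminal oxidase, was at 1.42, 2.85, 3.04 and 3.17 RPKM, with library 1 below the others.

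ATP synthase members were the most varied of the named groups. Besides ATMG01080, ATMG00410 (ATPase subunit 6, part of the proton channel) was at 3.11, 4.85, 2.5 and 4.62 RPKM. ATMG01090, which the note also calls ATP synthase 9, was at 0.87, 0.87, 1.12 and 1.93 RPKM on 17 recovered reads. Its values therefore lay far under those of ATMG01080 in every library, without overlap. ATMG01090 was placed in complex V by its name in the note alone. Its implied length was 788 bases. AT2G07777, the locus cited with ATMG01090, has 789 coding bases, and AT2G07671, the locus cited with ATMG01080, has 258. ATMG00480 (subunit 8) and ATMG01190 (subunit 1, the alpha subunit of the catalytic head) were listed at 0 in all libraries.

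Among factors of cytochrome c maturation, which attach heme to the electron carrier cytochrome c, ATMG00180 was at 2.35, 2.53, 3.08 and 2.89 RPKM. ATMG00960 had 1 read, 0.36 RPKM in library 4, and ATMG00900 was at 0. All 4 named ribosomal proteins, ATMG00210 (L5), ATMG00290 (S4), ATMG00980 (S12) and ATMG01270 (S7), were listed at 0 in all libraries. Genes that every cell uses are thus among those at 0, and a 0 here says only that no read was counted for the member, not that its RNA is absent. Of 7 members with another product name, 6 were at 0, among them ATMG00590 (cytochrome b/b6 protein) and ATMG01280 (similar to a part of cytochrome oxidase subunit 2). The seventh, ATMG00560, with a nucleic acid binding fold, was at 0, 1.09, 0.63 and 0.62 RPKM.

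Members described only as an unknown protein were mostly at 0 as well, 16 of 21. ATMG01220 led them at 1.33, 2.01, 1.93 and 5.74 RPKM, with library 4 far above the others. ATMG01040 was at 2.11, 0.71, 0 and 0.67 RPKM and ATMG00400 at 0.96, 0.48, 0 and 0.46 RPKM. ATMG00970 and ATMG01030 had 1 read each, at 0.64 RPKM in library 1 and 0.69 RPKM in library 3. Of the 17 members with a named role in respiration, cytochrome c maturation or the ribosome, 8 were at 0 in all libraries and 4 reached 1 RPKM in all 4, against 16 and 1 of the 21 unknown proteins. Both medians were at 0 in every library and so do not compare the groups. As means of log2(RPKM + 1), the members with a named role stood at 0.74, 0.83, 0.79 and 0.92 in libraries 1 to 4, against 0.22, 0.14, 0.11 and 0.19 for the unknown proteins, a mean difference of 0.66. A further 8 members known only as the source of a pseudogene included 2 at 0.

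Whether or not a member was cited on chromosome 2, low values prevailed. Of the 53 cited members 32 (60.4%) were at 0 and 5 (9.43%) reached 1 RPKM in all 4 libraries, against 46 (49.5%) and 22 (23.7%) of the 93 others. Summed over members, the cited ones held 48.7, 56.4, 45.1 and 56.2 RPKM in libraries 1 to 4, against 771, 742, 763 and 770 RPKM for the others, most of it ATMG00030. No test was made of this split, which goes by citation and not by shared sequence.

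In complexes I and V the nuclear genes stood mostly above the named mitochondrial members with values. On the log2(RPKM + 1) scale the median of the 3 complex I members minus that of 26 nuclear genes was -5.55, -6.24, -6.18 and -5.44 in libraries 1 to 4, a mean of -5.85 ± 0.42 (SD, n = 4). The middle complex I member had 1 read or none in each library. For complex V, 5 members minus 16 nuclear genes gave -5.35 ± 0.31. The middle complex V member was ATMG01090 in each library, at 0.87 to 1.93 RPKM on 17 recovered reads. ATMG01090 was placed in complex V by its name alone, so the complex V difference depends on that placement. The nuclear medians were 70.7 RPKM in complex I and 87.0 RPKM in complex V. Of the nuclear genes, 25 of 26 and 13 of 16 exceeded the highest named mitochondrial member of their complex.

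In complex IV the picture was less clear, with 8 of 14 nuclear genes above the single named member, ATMG00730. Of the 14, 5 were listed at 0 in all libraries. The difference was -2.04 ± 0.36 as medians, -1.03 as means and -2.71 among genes averaging at least 1 RPKM. The single complex III member and all 4 ribosomal members are listed at 0, so no difference is given for them. Their nuclear genes had medians of 77.2 RPKM in complex III and 13.5 RPKM for the ribosome. Genes within a library are not replicates and the 4 libraries are 1 sample, so no p-value is given. Nuclear genes were taken by product name, which leaves out subunits named otherwise. Mitochondrial members not annotated here are missing from each complex at unknown levels, so the differences and counts hold for named members only.

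**Figure D3:**
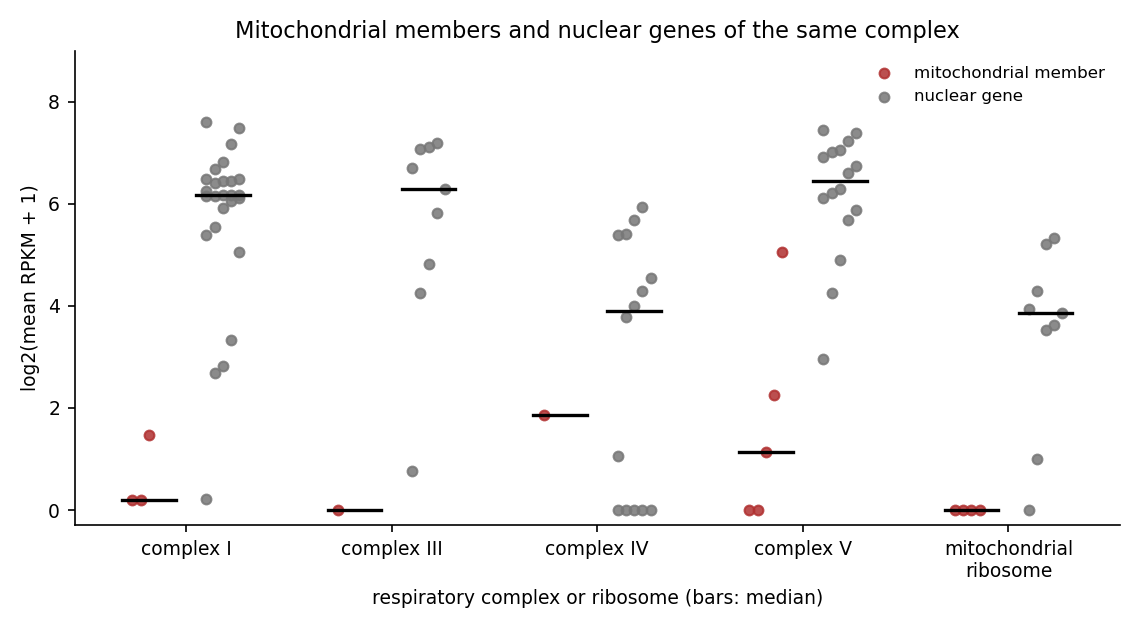
log2(mean RPKM + 1) over the 4 technical libraries (vertical axis) of named mitochondrial members and of nuclear genes. Respiratory complexes I, III, IV and V and the mitochondrial ribosome stand along the horizontal axis, with a bar at each median. The mitochondrial points of complex III and the ribosome are listed at 0, with no read counted. Those of complexes I and V lie mostly below the nuclear genes, and 8 of 14 nuclear genes lie above the complex IV member. ATMG01080 is the highest member drawn.

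The chromosome 2 loci gave a mixed picture in the same libraries. Of 55 cited loci, 45 were listed in these files, which gives 45 pairs of a member and a locus. In 6 pairs both were above 0, in 8 the member only, in 15 the locus only and in 16 neither. Summed over the pairs, members held 44.0, 54.2, 44.4 and 52.8 RPKM in libraries 1 to 4, against 55.3, 51.2, 51.1 and 43.7 RPKM for the loci, with neither side higher in all 4 libraries. In 23 pairs the coding sequence of the locus was identical to the mitochondrial genome over its whole length. Among these, both had values in 3, the member only in 3, the locus only in 8 and neither in 9. Loci were compared with the whole mitochondrial genome and not with the member itself, whose sequence and position were not available here.

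ATMG01080, at 31.7, 37.3, 29.2 and 30.7 RPKM, is cited with AT2G07671, the first sequence printed above, which was at 27.95, 26.5, 24.01 and 25.3 RPKM. The member was higher in each library. For apocytochrome b the values sat on the nuclear side, with ATMG00220 at 0 and AT2G07727 at 2.33, 1.72, 1.5 and 0.74 RPKM. ATP synthase subunit 1 did likewise, with ATMG01190 at 0 and AT2G07698 at 2.25, 1.51, 1.45 and 1.52 RPKM. The single best match of that locus to the mitochondrial genome held 64.7% of its coding bases, a lower limit since further matches were not added. For these 2 proteins, then, the nuclear locus is listed above 0 in every library and the member at 0. In contrast ATMG00410 had values in all libraries, while AT2G07741, whose coding sequence is identical to the mitochondrial genome, was at 0 in all 4. ATMG00730 was at 1.42, 2.85, 3.04 and 3.17 RPKM. It is cited with AT2G07687, also identical to the mitochondrial genome over its coding sequence, at 2.29, 0.92, 1.54 and 1.75 RPKM. The locus was higher in library 1 and the member in the other libraries. ATMG00180 stood beside AT2G07815 at 7.53, 4.53, 5.08 and 1.44 RPKM, lower than the locus in libraries 1 to 3. The single best match of AT2G07815 held 34.6% of its coding bases, likewise a lower limit.

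These loci had values almost only in the technical files. Over the same 45 loci, 21 were above 0 in at least 1 technical library, against 4 in at least 1 of the 2 biological libraries of Col-0. Of all nuclear genes, 75.1% were above 0 in at least 1 technical library. That share was not computed for the biological libraries, which are also fewer, so the difference is not shown to be particular to these loci. AT2G07671 was listed at 0 in both biological libraries, and so were AT2G07727, AT2G07698, AT2G07687 and AT2G07815. Over all 85 listed loci within the matched stretch of chromosome 2, summed levels were 73.3, 72.5, 66.7 and 59.4 RPKM in the technical libraries and 0.855 and 1.28 RPKM in the biological ones, without overlap. The highest of these that no note ties to a member was AT2G07774, at 12.9, 12.9, 8.99 and 13.2 RPKM in the technical libraries and 0 in both biological ones. AT2G07715, cited with ATMG00560, went the other way, at 0 in all 4 technical libraries and at 0.485 and 0.763 RPKM in the biological ones. The 2 kinds of file list different sets of features and come from different runs, so how RNA, library or counting enter this difference cannot be told apart.

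**Figure D4:**
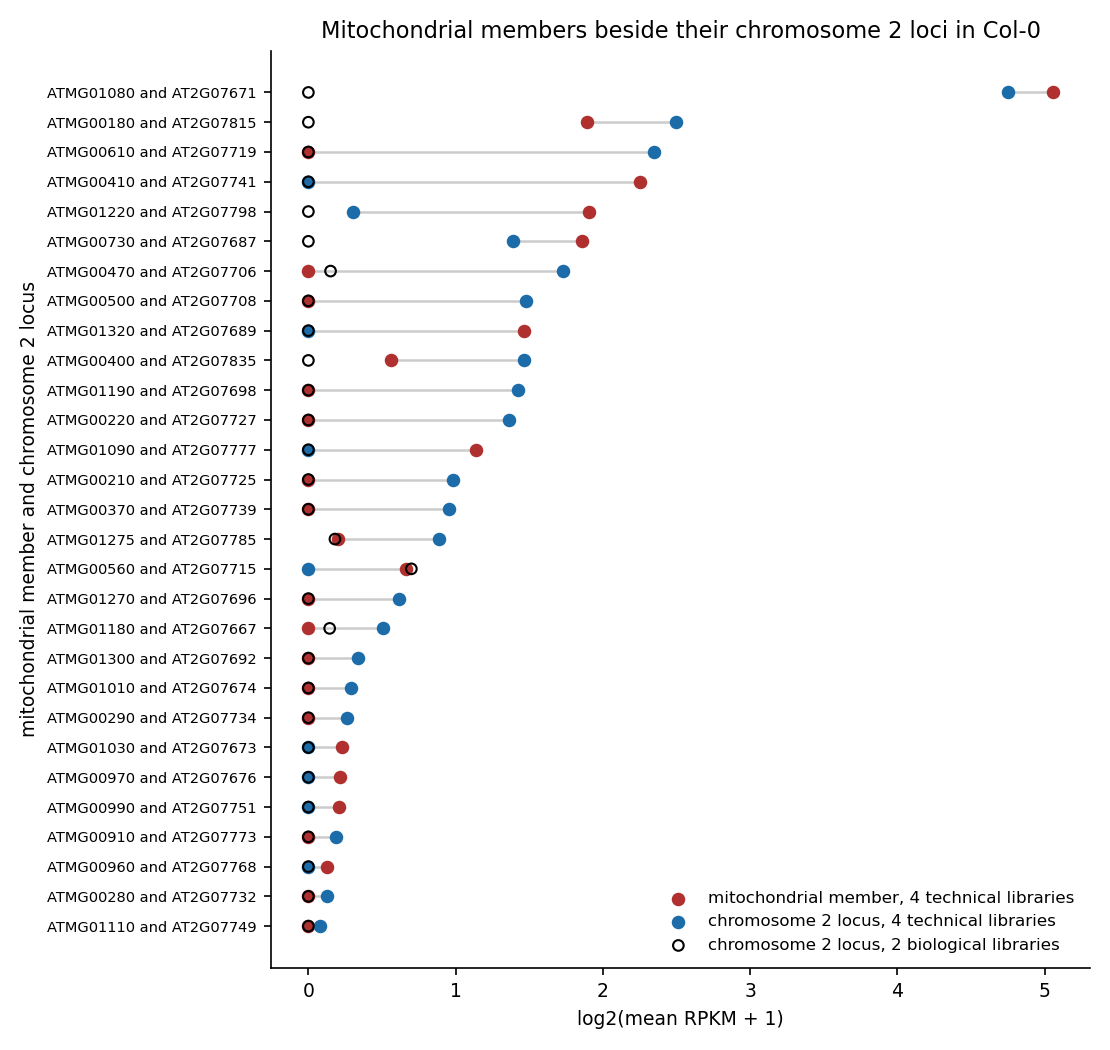
log2(mean RPKM + 1) (horizontal axis) of mitochondrial members (red) and the chromosome 2 loci cited with them (blue) over 4 technical libraries, and of the loci over 2 biological libraries of Col-0 (open circles), for the 29 pairs with a value in a technical library (vertical axis). ATMG01080 and AT2G07671 stand apart at 32.2 and 25.9 RPKM, and the open circles lie at or near 0.

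Members spread more between technical libraries than other features, in a comparison that was not matched for read number. Among features at 1 RPKM or more in all 4 libraries, 8 of 27 members (29.6%) had their highest and lowest library at least 2-fold apart, against 1 of 78 plastid features (1.28%) and 807 of 16183 nuclear genes (4.99%), with 5.01% over all features. The median SD of log2(RPKM + 1) was 0.32 over members, against 0.12 over plastid features and 0.13 over nuclear genes. Nuclear genes with means in the range of the members other than ATMG00030, 2.53 to 32.2 RPKM, had a median SD of 0.14. For 21 of the 27 members the SD exceeded the median of the 50 nuclear genes nearest in mean level.

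ATMG01220 and ATMG00285 had the widest spread, with SDs of 0.67 and 0.63. ATMG00285 was at 1.58, 4.75, 1.14 and 2.64 RPKM, a 4.17-fold range. ATMG00660, at 7.33 to 16.0 RPKM, had an SD of 0.50, more than any of the 50 nuclear genes nearest to it. ATMG00030 and ATMG01360, with SDs of 0.03 and 0.06, were below the median of their 50 nuclear genes, as were ATMG00090, ATMG00180, ATMG00510 and ATMG01170. By library, 15 of the 27 members were lowest in library 3 and none in library 4, while 9 each were highest in libraries 1 and 4. The same count was not made for plastid or nuclear features, so the pattern is not shown to be particular to members.

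Whole reads were recovered for 11 of these 27 members, at 11 reads per library in the median. Recovery works only for short features with few reads, so the 11 do not stand for the other 16, and no length or read number is set against nuclear genes. The part that feature length and read number have in the wider spread was not tested. Observed variance was divided by that of counting alone, where 1 means no more than counting. The pooled ratio was 1.37 over the 19 recovered members with at least 10 reads and 1.11 over all 52 recovered members. ATMG00070 (2.83), ATMG00285 (2.63), ATMG01370 (2.57), ATMG01000 (2.49) and ATMG01220 (2.26) had ratios over 2, and how many would by counting alone was not computed. These ratios take the shortest length that gives whole reads, and a longer one would raise them. Of the 52 recovered members, 26 rest on 3 reads or fewer and 19 on 1.

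**Figure D5:**
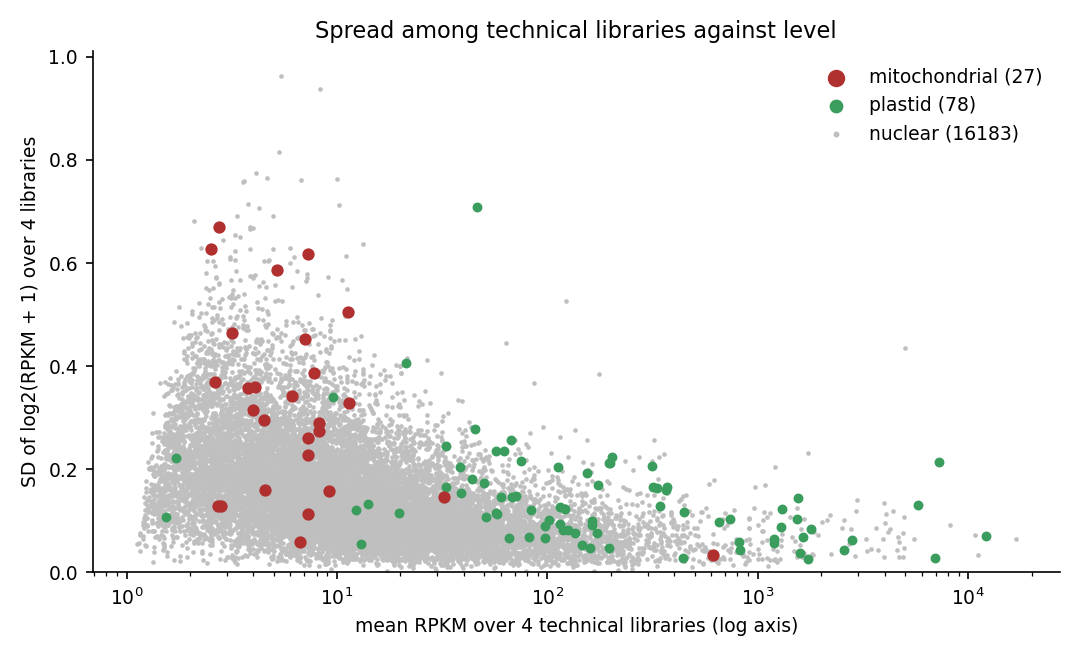
SD of log2(RPKM + 1) over the 4 technical libraries (vertical axis) against mean RPKM on a log axis (horizontal), for 27 mitochondrial, 78 plastid and 16183 nuclear features at 1 RPKM or more in every library. Mitochondrial features have a median SD of 0.32, against 0.12 for plastid and 0.13 for nuclear ones, and ATMG00030 lies near the floor at 611 RPKM.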

How the data were processed

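The authors deposited RPKM per gene for each library, defined per the file headers as reads scaled to exon model length and mapped reads; the 4 technical files hold 2 decimals. In the biological files the deposited value -1 was read as no value, and the other values as RPKM on another feature set. The submitters' processing notes name the builds TAIR9 and TAIR10; the sources used here name no aligner, counting rule or strand setting. The members, classes, subunit lists and markers were chosen with earlier results of these data known, and classes and subunit lists after the files were seen. Members at the highest 10 means, all in a named class, and the 5 highest unknown proteins are named with values; no tests were run on members. Each value is the mean and SD of 4 libraries, differences use log2(RPKM + 1), which understates change at low levels, and detection uses 1 RPKM.

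Depth was found as the read unit at which low nuclear genes give whole reads with TAIR10.1 exon lengths: 26.1% to 28.8% of genes with up to 6 reads did, against 4.82% to 5.24% at other units, so lengths agree for a minority of genes. For each member the shortest length giving whole reads in all libraries, within 2 decimals and a relative tolerance of 0.002, was taken; a common divisor can be missed. This was tested on simulated reads that took the annotated lengths as exact, so the test does not cover genes whose lengths disagree. Mitochondrial and nuclear sequence of RefSeq TAIR10.1 was matched with blastn 2.17.0. Python 3.11.15, pandas 2.3.3, numpy 2.4.6 and scipy 1.17.1 were used. Alternatives left out each library, rescaled to the nuclear sum, and changed thresholds, pseudocount, summary and filters; 3 more were added after seeing the data.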

Additional observations from a re-analysis of the deposited data

Results flagged for a closer look

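Of 44 values compared over the 4 technical libraries, 13 had 1 library far from the others; chance alone sets about 1 in 20 such groups apart, and 5 of the 13 are members with a single read, where the 1 library with a value always stands apart. Those 5 are ATMG00960 at 0.36 RPKM and ATMG00990 at 0.61 RPKM in library 4, ATMG01275 at 0.59 RPKM and ATMG00970 at 0.64 RPKM in library 1, and ATMG01030 at 0.69 RPKM in library 3.

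The other 8 have values in all 4 libraries. ATMG00030 was highest in library 3 at 633 RPKM, ATMG00160 in library 1 at 16.0 RPKM and ATMG01220 in library 4 at 5.74 RPKM. Of the chromosome 2 loci, AT2G07698 stood apart in library 1 at 2.25 RPKM, while library 3 stood apart for AT2G07725 at 1.18 RPKM, AT2G07835 at 2.77 RPKM and AT2G07774, its lowest library, at 8.99 RPKM. The plastid share of summed RPKM was highest in library 4 at 8.65%.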

How the results depend on the processing

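No difference changed sign under any alternative run, but for some this was fixed beforehand. With all members at 0, complex III and the ribosome could give only negative values, and known minus unknown members started from 0. Of the alternatives to the main results, 71 stayed and 24 moved, by at least the spread over libraries or, for counts, by over 1.5-fold. Of 23 members given with values, 15 had means within 1.5-fold when any 1 library was left out. ATMG00960, ATMG00990, ATMG01275, ATMG00970 and ATMG01030 went to 0 without their 1 library, while ATMG01220 went to 1.76 RPKM without library 4, and ATMG01040 to 0.46 and ATMG00400 to 0.313 RPKM without library 1. Leaving out each library gave 27 to 29 members at 1 RPKM in all remaining libraries, a mitochondrial share of 0.104% to 0.105%, and a median level of members above 0 of 0.952 to 1.18 RPKM, against 1.02 RPKM. The median SD of members was 0.26 without library 3, 0.28 to 0.35 without another, and 0.24 for members averaging at least 10 RPKM, where nuclear genes had 0.10. At 5 RPKM, 12 members passed. The share was 0.117% without the 10 most abundant nuclear genes and 0.0259% without ATMG00030 (added after seeing the data). Known minus unknown members differed by 0.66 as means and by 0.050 as medians with a filter on a mean of 1 RPKM. The filter left ATMG01220 as the only unknown protein. Mitochondrial minus plastid features stood at -8.60 with a pseudocount of 0.1, -3.71 as means, -4.59 with the filter and -6.05 over features above 0 (added after seeing the data), and leaving out each library gave -5.37 to -5.24. Mitochondrial minus nuclear subunits, with the pseudocount of 0.1, were at -8.09 for complex I, -9.59 for complex III, -6.14 for complex V and -7.06 for the ribosome. As means they were at -5.10 for complex I, -5.55 for complex III, -1.03 for complex IV, -4.49 for complex V and -3.41 for the ribosome. For complex III and the ribosome, whose members are all at 0, these values hold only the nuclear level and the pseudocount. With the filter they were at -4.76 for complex I, where ATMG01320 was the only member left, -2.71 for complex IV and -4.24 for complex V. The cause of the other shifts was not tested.

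Shares without rRNA and tRNA, shares of reads, leaving out short features for differences, the filter for complex III and the ribosome, and leaving out shared sequence for named classes were not run, since identifiers, lengths, reads of ATMG00030 and ATMG01080, or members left were lacking. Members near 1 RPKM rest on few reads, which limits every level and spread given. No paired analysis was possible because the results come from no test and the numbers of technical and biological libraries mark different samples.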
